A study of Mus musculus with 4 samples.

Results

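CD11b-high cells were the 756 cells with the highest count of a CD11b antibody tag among 7492 bone-marrow classical monocytes of female mice, or 10.1% of them, ties at the threshold included. The whole series held 8718 cells that passed the same filters, of which 1226 came from a male pool without surface antibody tags. A cell was kept when it had over 200 detected genes, less than 5% of its unique molecular identifiers (UMIs, each standing for a captured molecule) on mitochondrial genes, and 70% or more of its hashtag UMIs on a single hashtag. Of the 10433 female barcodes, 7 had too few genes, 534 had too high a mitochondrial percentage and 2516 had a less pure hashtag. The male and female pools shared 0 barcodes.

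The monocytes came from wild-type C57BL/6 mice, 5 young females aged 15 weeks and 5 old females aged 26.5 months. Each mouse carried its own hashtag, and all 10 mice were sequenced as a single pooled library, so that each mouse served as a replicate. Cells had been sorted as Ly6G- CD11b+ CD115+ Ly6C-high cells, so that CD11b, CD115 and Ly6C had already been used to choose them, and they carried no allele or treatment that separated the groups other than age. The remaining 6736 cells of the same 10 mice formed the comparison.

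CD11b, encoded by Itgam, is the alpha chain of a leukocyte integrin that pairs with CD18, the product of Itgb2. The pair binds complement-coated particles, fibrinogen and endothelial adhesion molecules, and it signals through kinases of the Src family and adaptors that recruit Syk. It is found on monocytes, neutrophils and macrophages, and its surface level rises as myeloid cells mature in the marrow.

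The promoter of Itgam is shown because the selection rests on its product, and those of H2-Aa and H2-Eb1 because MHC-II genes were among the transcripts that differed most. Each line gives the 150 bases before the RefSeq transcription start in the mouse build GRCm38.p6, on the strand of the gene, and capitals mark motif matches. For Itgam at chr7:128062490-128062639, on the plus strand, the motif was GAGGAA on either strand, a core bound by the myeloid factor PU.1. For H2-Aa at chr17:34287824-34287973, on the minus strand, and H2-Eb1 at chr17:34305717-34305866, on the plus strand, it was CTGATTGG, the Y box of MHC-II promoters.
Itgam: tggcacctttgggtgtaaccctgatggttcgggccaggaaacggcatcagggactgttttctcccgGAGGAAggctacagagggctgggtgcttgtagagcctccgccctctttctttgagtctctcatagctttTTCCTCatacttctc
H2-Aa: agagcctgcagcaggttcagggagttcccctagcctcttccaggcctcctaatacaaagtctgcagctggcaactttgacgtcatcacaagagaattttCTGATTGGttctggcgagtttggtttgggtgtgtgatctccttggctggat
H2-Eb1: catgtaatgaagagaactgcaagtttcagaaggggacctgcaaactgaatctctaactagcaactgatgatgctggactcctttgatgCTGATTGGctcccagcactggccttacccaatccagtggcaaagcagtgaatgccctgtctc
The matches began 84 and 15 bases before the Itgam start, 51 bases before that of H2-Aa and 62 before that of H2-Eb1. Searched on both strands, GAGGAA was present in 14.5% and CTGATTGG in 3.16% of 32851 promoter windows of the same length. A match describes the letters only, and binding was not measured.

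The CD11b tag chose the cells, and its values are therefore a description. CD11b-high cells had a median of 123 CD11b UMIs, from 97 to 583, and the remaining cells a median of 37, from 0 to 96. Counts formed a continuous distribution with no gap at the threshold, as the plot of CD11b tag counts shows. The 88 cells just inside it, with 97 to 101 UMIs, had a median of 628.5 UMIs over the other 5 surface tags and 7905 RNA UMIs. The 134 cells just outside it, with 92 to 96 UMIs, had medians of 620.0 and 9082.5. Cells on either side of the threshold thus had close tag totals.

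**Figure D1:**
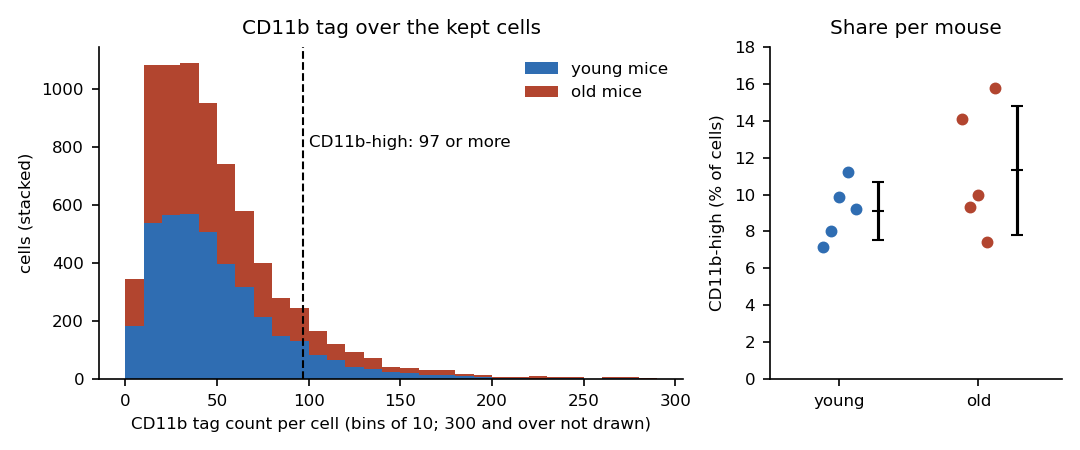
Left, number of kept female cells by CD11b tag count, stacked by age, with the threshold of 97 UMIs dashed, where CD11b-high cells form the right tail of a continuous distribution. Right, share of cells that were CD11b-high in each mouse with the mean and SD per age, which overlap.

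Total tag counts were also higher in CD11b-high cells. The other 5 surface tags (Flt3, CD115, Ly6C, CD11c and MHC-II) summed to a median of 738.5 UMIs per cell, against 533 in the remaining cells. In each of the 10 mice the median was higher in CD11b-high cells, where it ran from 643 to 839.5, than in the remaining cells, where it ran from 483.5 to 571, and the ranges did not overlap. Hashtag UMIs, which do not report on CD11b, had a median of 397.5 against 275, and again were higher in every mouse. CD11b made up a median of 14.8% of all surface-tag UMIs in CD11b-high cells and 6.46% in the remaining cells. Ly6C carried 83.7% of the 4894819 surface-tag UMIs and CD11b 7.74%, so the tag total was mostly a Ly6C count. The part of total tag capture in each result was not tested beyond the selections by tag share and within the interquartile range of the other tags, whose values are given below.

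RNA went the other way. The median RNA UMI count was 8489 ± 971 in CD11b-high cells and 11362 ± 2932 in the remaining cells (mean ± SD of the mouse medians, n = 10), lower in all 10 mice (exact sign-flip permutation test, two-sided, p = 0.00195, the smallest these mice can give, adjusted p = 0.00293 over 3 measures). Detected genes numbered 2607 ± 161 against 3109 ± 444, also lower in all 10 mice, with the same p. Mitochondrial UMIs took 3.03 ± 0.197% against 3.28 ± 0.0966%, lower in 9 of 10 mice (exact sign-flip permutation test, two-sided, p = 0.00586), a call lost with the top 5% of cells (-0.217 percentage points, adjusted p = 0.0508). The ratio of surface tags to RNA UMIs was higher in CD11b-high cells in all 10 mice. Cells without UMIs of 4 cell cycle genes (Mki67, Top2a, Birc5 and Nusap1) made up 49.3 ± 6.46% of CD11b-high cells and 30.8 ± 6.63% of the remaining cells, with a larger share in 9 of 10 mice.

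The composition of the other 5 tags was then compared within each mouse. Shares sum to the whole, so with most UMIs on Ly6C a lower Ly6C share goes with higher shares of other tags. MHC-II took from 5.47% to 25% of these tags in CD11b-high cells (median 8.51%) and from 2.37% to 21.8% in the remaining cells (median 4.92%). The ranges across mice overlapped, but within each of the 10 mice the MHC-II share was higher in CD11b-high cells, at 11.8 ± 6.89% against 6.58 ± 5.76% (exact sign-flip permutation test, two-sided, n = 10, p = 0.00195, adjusted p = 0.00244 over 5 tags). CD11c, an integrin alpha chain of dendritic cells and some monocytes, took 0.862 ± 0.411% against 0.553 ± 0.231%, also higher in 10 of 10 mice with the same p. The Flt3 share, from a receptor of dendritic cell progenitors, was 0.672 ± 0.572% against 0.507 ± 0.431%, higher in 9 of 10 mice (exact sign-flip permutation test, two-sided, p = 0.00586). Both tags had low counts, so these shares rest on few UMIs per cell. Mouse medians were 4.8 ± 2.15 against 2.0 ± 1.05 UMIs for CD11c and 4.4 ± 3.86 against 2.1 ± 2.08 for Flt3.

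Ly6C, which marks classical monocytes, had a smaller share in CD11b-high cells in all 10 mice, at 85.8 ± 7.44% against 91.3 ± 6.06% (exact sign-flip permutation test, two-sided, n = 10, p = 0.00195). Its count was nevertheless higher, with mouse medians from 447 to 791 in CD11b-high cells and from 409.5 to 515.5 in the remaining cells. CD115, the receptor for the growth factor M-CSF, had a share of 0.827 ± 0.249% against 1.08 ± 0.230%, lower in all 10 mice with the same p. That direction reversed when cells were chosen by the share of CD11b in all surface tags, where the CD115 difference was 0.135 percentage points (exact sign-flip permutation test, n = 10, p = 0.0195), and at 90% hashtag purity the difference of -0.124 was no longer called (adjusted p = 0.0898).

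**Figure D2:**
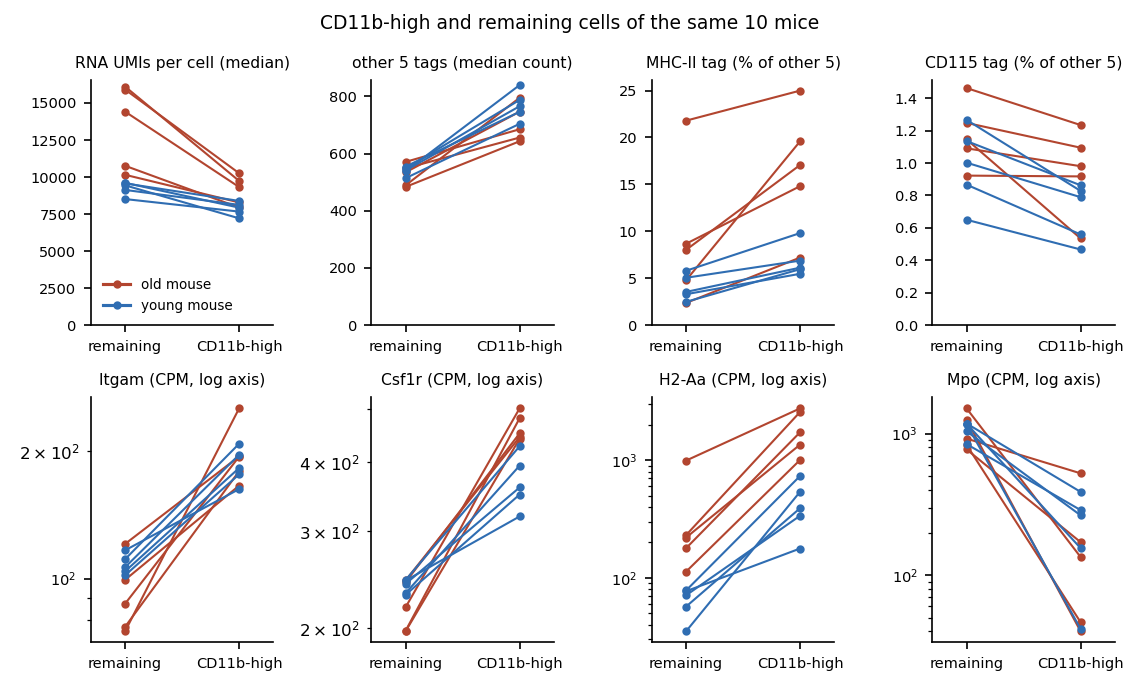
RNA UMIs, tag measures and the CPM of Itgam, Csf1r, H2-Aa and Mpo (log axes) in the remaining and CD11b-high cells of each mouse, with a line joining the values of 1 mouse and colour giving its age. CD11b-high cells had fewer RNA UMIs and a larger MHC-II share of the other tags in all 10 mice, and less Mpo, which was not called within the interquartile range of RNA UMI counts.

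RNA of each mouse was summed over its CD11b-high cells and over its remaining cells and compared within mice with edgeR. In such sums, more expressing cells and more RNA per expressing cell cannot be told apart. The tag counts, and no transcript level, set which cells were CD11b-high. Of 8831 genes tested, 2330 (26.4%) were higher and 2126 (24.1%) lower in CD11b-high cells at an adjusted p under 0.05, with a median log2 fold change of 0.02, so counts within gene groups are read against these shares. Seurat's HTODemux, run on the same hashtags, called 207 (27.4%) of the CD11b-high and 822 (12.2%) of the remaining cells doublets of mice. With its singlets in place of the purity rule, 4141 genes were called, including 3846 of the 4456.

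Itgam was first examined because it encodes the tagged protein. It lay between 162 and 251 CPM (UMIs of the gene scaled to a common library size) in CD11b-high cells, with a median of 188, and between 75.2 and 121 in the remaining cells, with a median of 103. The ranges did not overlap, and the log2 fold change was 1.0 (SE 0.09, higher in 10 of 10 mice, edgeR adjusted p = 3.2e-09). Itgb2, the partner chain, lay between 300 and 372 CPM with a median of 329, against 194 to 248 with a median of 223, again without overlap (log2 fold change 0.64, SE 0.05, edgeR adjusted p = 2.5e-09). Both chains of the tagged receptor were thus higher in RNA over all cells, but among cells without cell cycle UMIs neither was called, with Itgam at 0.15 (edgeR adjusted p = 0.26) and Itgb2 at 0.10 (adjusted p = 0.37).

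Integrin chains as a list went both ways. Of 19 listed chains, Itgam and Itgb2 included, 12 were tested, 8 were higher, 3 were lower and Itgb3 was not called (log2 fold change 0.44, edgeR adjusted p = 0.192), with a median of 0.58. Itgal, the alpha chain of a lymphocyte and monocyte adhesion receptor, rose by 0.93 on the log2 scale, Itga4, which pairs into a receptor for VCAM, by 0.83, Itgav by 0.88 and its partner Itgb5 by 0.98, each in 10 of 10 mice. The fibronectin receptor chain Itga5 rose by 0.53 in 8 of 10 mice, and the shared beta chain Itgb1 by 0.19 in 6 of 10. The laminin receptor chain Itga6 fell by 1.48, the collagen receptor chain Itga1 by 0.44 and Itgb7, which pairs with Itga4 in homing to gut, by 0.14. The calls for Itgb1, Itga1 and Itgb7 were lost when single mice were left out, for Itgb1 with any of the 5 old mice, at an adjusted p of 0.0517 to 0.0593. Itgax, which encodes CD11c, had 22 UMIs in CD11b-high cells and 71 in the remaining cells, 2.66 against 0.795 CPM, and was not tested.

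Genes that act on integrins or downstream of them were mostly higher. Of 16 genes of integrin activation and adaptors, 10 were higher and 1, Rasgrp2, an activator of Rap GTPases, was lower, with a median log2 fold change of 0.30. Fyb, an adaptor that links receptors to integrin activation, rose by 1.28, Apbb1ip, the Rap effector that recruits talin, by 0.64, the focal adhesion protein Zyx by 0.41 and the GTPase Rap1b by 0.40. Of 14 signalling partners of CD11b, 13 were higher, with a median of 0.54, and Vav1 was not called. Among them the Src-family kinase Fgr rose by 1.11, the inhibitory receptors Sirpa by 0.73 and Fcgr2b by 0.97, and Tyrobp, an adaptor that recruits Syk, by 0.43.

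Genes of uptake and oxidant production followed the same direction. All 6 NADPH oxidase genes were tested, and 4 were higher, with a median of 0.29, among them the catalytic subunit Cybb by 0.93, the membrane subunit Cyba by 0.31 and the organizer Ncf1 by 0.28. Ncf1 turned to -0.08 among cells without cell cycle UMIs. Of 10 genes grouped with complement and opsonin receptors, 8 were tested, 5 were higher and the properdin gene Cfp was lower, with a median of 0.99. The IgG receptors Fcgr1 and Fcgr4 rose by 0.92 and 2.01, the C-type lectin Clec4n by 2.60 and the complement C5a receptor C5ar1 by 1.87.

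Of the 9 transcripts behind the antibody panel, 7 were tested. Csf1r, which encodes CD115, lay between 319 and 501 CPM, with a median of 434, against 198 to 245 with a median of 236, without overlap (log2 fold change 0.93, SE 0.07, edgeR adjusted p = 4.8e-10). The count of the CD115 tag, with mouse medians of 4.6 ± 1.37 against 3.9 ± 0.994, was higher in 6 of the 10 mice and lower in none, while its share of the other tags was lower. Ly6c2, which encodes Ly6C, lay between 1644 and 2580 CPM with a median of 1931 in CD11b-high cells and between 2268 and 3046 with a median of 2406 in the remaining cells. The ranges overlapped, but the level was lower in all 10 mice (log2 fold change -0.28, SE 0.04, edgeR adjusted p = 1.6e-06). Flt3 was not called (log2 fold change 0.32, edgeR adjusted p = 0.188).

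MHC-II genes, whose products present peptides to CD4 T cells, had some of the largest differences. H2-Aa, an alpha chain whose promoter is printed above, lay between 177 and 2753 CPM in CD11b-high cells, with a median of 869, and between 35.1 and 991 in the remaining cells, with a median of 95.5. Mice overlapped between the classes, but each of the 10 was higher in its CD11b-high cells, with a log2 fold change of 2.84 (SE 0.19, edgeR adjusted p = 9.6e-11). The beta chains H2-Ab1 and H2-Eb1 rose by 2.79 and 3.16, and the MHC-II invariant chain Cd74 by 2.45. H2-Aa had no UMI in 441 of the 756 CD11b-high cells, and the 76 cells with the most H2-Aa carried 71.2% of its UMIs, whereas the 76 cells with the most Itgam carried 31.2% of the Itgam UMIs. MHC-II RNA was thus concentrated in fewer CD11b-high cells than Itgam RNA.

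**Figure D3:**
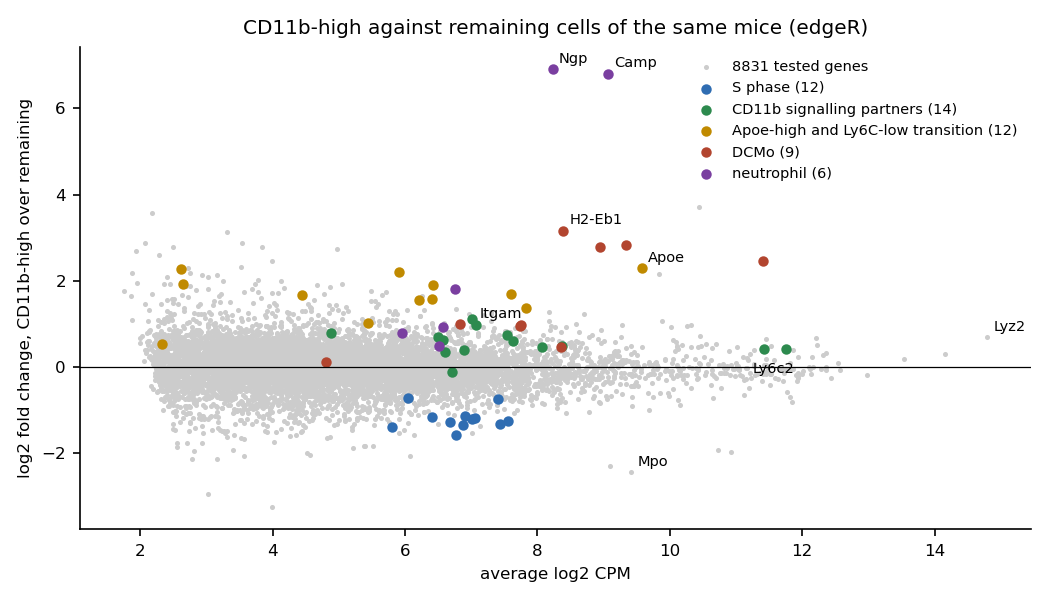
Log2 fold change between CD11b-high and remaining cells of the same mice against average log2 CPM, each point 1 of 8831 tested genes, with 5 gene groups in colour. All 12 S phase genes lie below 0, all 12 Apoe-high genes above it, and Ngp and Camp stand apart at the top.

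Genes of mature and differentiating monocytes were higher. Several of these monocyte groups were drawn up from what the study found in these samples, so their direction is not independent evidence. Of 14 genes of mature Ly6C-high monocytes, 13 were higher, with a median of 0.77, among them the lectin receptor Clec4a1 by 1.23, the growth regulator Slfn1 by 1.07 and lysozyme Lyz2 by 0.70. Of 14 genes of Apoe-high cells and of the passage to Ly6C-low monocytes, 12 were tested and all 12 were higher, with a median of 1.69. Apoe, a lipid carrier, lay between 738 and 2027 CPM with a median of 1277, against 116 to 398 with a median of 347, without overlap (log2 fold change 2.29, SE 0.11, edgeR adjusted p = 1.9e-12). In the same group Pla2g7, a phospholipase that degrades platelet-activating factor, rose by 2.19, Gngt2 by 1.70 and AF251705 by 1.90. Marcksl1, a cytoskeletal protein of the MARCKS family, was also among the largest rises, at 1.93.

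Transcription factors and trafficking receptors divided. Of 16 tested factors, 10 were higher and 4 (Klf4, Myb, Irf8 and Myc) were lower. Nr4a1, which Ly6C-low monocytes require, rose by 1.81, Maf by 2.18 and Klf2 by 0.80, while Klf4 fell by 0.38 and Irf8 by 0.43. Of 10 tested trafficking receptors, 5 were higher and 4 lower. The chemokine receptors Cx3cr1 and Ccr2 rose by 1.24 and 0.64, and the adhesion receptor Cd44 by 0.64. Cxcr4, which holds cells in the marrow, was lower, as were Selplg, Spn and Pecam1. All 10 interferon-stimulated genes were higher, with a median of 1.46, including Ifi204 by 0.91, Irf7 by 1.22, Isg15 by 1.18 and Ifi47 by 0.67. Of 11 tested immediate early genes, 10 were higher, with Zfp36 by 0.66, Junb by 0.64 and Atf3 by 1.43, although Junb turned to -0.05 among cells without cell cycle UMIs.

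Genes of proliferating and immature cells were lower. All 12 genes of G2/M phase were lower, with a median of -0.73, among them tubulin Tubb5, which fell by 0.76, Stmn1 by 1.01, Cks1b by 0.99 and the topoisomerase Top2a by 0.73. All 12 genes of S phase were lower, with a median of -1.23, including the nucleotide enzymes Tyms and Rrm2, which fell by 1.20 and 1.25, and the replication genes Mcm7 and Tipin, which fell by 1.15 and 1.26. The progenitor marker Cd34 fell by 3.25 and Sox4 by 1.76, and Cd48 was not called, at -0.09. Mpo, the myeloperoxidase of early granules, lay between 40.1 and 524 CPM with a median of 163 in CD11b-high cells and between 773 and 1508 with a median of 1103 in the remaining cells. The ranges did not overlap (log2 fold change -2.43, SE 0.25, edgeR adjusted p = 4.5e-08), but within the interquartile range of RNA UMI counts Mpo was at -0.06 and not called (adjusted p = 0.84). Other early granule genes moved with it, with Ctsg down by 2.30 and Prtn3 by 1.97. The largest falls further included Phgdh, of serine synthesis, by 2.07, Cdca7 by 1.84, Cst7, a cystatin, by 1.83, Dmkn by 1.88, the glutamate receptor subunit Gria3 by 1.82, the helicase subunit Mcm6 by 1.57 and Igfbp4, which binds insulin-like growth factors, by 1.57.

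The list of neutrophil-like monocytes (NeuMo) held 10 genes, of which 7 fell and 3 (S100a8, S100a9 and Srgn) rose, with a median of -1.30. The list of dendritic-like monocytes (DCMo) had 9 tested genes, of which 8 rose, with a median of 0.99. Mif, a cytokine in the first list, fell by 1.07, though among cells within the interquartile range of RNA UMI counts its value was 0.18.

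Neutrophil granule genes had the largest rises of all named genes, and they were carried by few cells. Ngp lay between 4.36 and 5692 CPM with a median of 517 in CD11b-high cells and between 2.15 and 10.3 with a median of 3.11 in the remaining cells (log2 fold change 6.91, SE 0.50, edgeR adjusted p = 2.7e-10). Camp, an antimicrobial peptide, lay between 6.24 and 6932 CPM with a median of 840, against 4.27 to 13.8 with a median of 4.84 (log2 fold change 6.80, SE 0.61, edgeR adjusted p = 4.9e-09). Ranges overlapped for both genes, although each was higher in all 10 mice. In all, 13 kept cells had 10 or more UMIs of Camp and Ngp together, and 11 of them were CD11b-high.

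These 11 cells came from the mouse old 3 and from all 5 young mice. Their CD11b counts ran from 99 to 583, 4 of them were among the 10 highest CD11b counts of the pool, and they had 0 to 4 UMIs of Csf1r, against a median of 4 in all CD11b-high cells. They carried 99.1% of the Camp, 99.2% of the Ngp, 88.0% of the S100a9, 78.5% of the S100a8 and 68.6% of the Lcn2 UMIs of CD11b-high cells. Without all 13 such cells S100a9 was at 1.09 (edgeR adjusted p = 0.066), S100a8 at 0.42 (adjusted p = 0.324) and Lcn2 at 0.33 (adjusted p = 0.295). Itgam stayed at 1.0. Camp was at 0.86, but Camp and Ngp define these cells, so its value without them cannot be read as a test. This selection was made after the values had been seen.

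Markers of other cell types were examined as whole lists, summed over each class. Without 137 cells rich in such markers, 43 of them CD11b-high, a selection made after the values had been seen, edgeR called 4525 genes between the classes, against 4456 with them, and 114 between the ages, against 118. Of 11 neutrophil markers, 6 were tested and all 6 were higher, with Cd177 up by 0.92 and the G-CSF receptor Csf3r by 0.80. The list summed to 2060 CPM in CD11b-high cells and 283 in the remaining cells, and Camp gave 44.1% of it. By mouse, the sum ran from 311 to 15912 CPM in CD11b-high cells, with the 5 young mice and old 3 at 1711 or more and the other old mice at 434 or less. T or NK cell markers summed to 117 CPM against 34.2, with Ccl5 at 81.3% of the list and old 2 at 1141, without which the sum was 59.4. Ncr1, Gzma and Trbc2 were at 0 in CD11b-high cells, and Gzma and Trbc2 also in the remaining cells. Ccl5, a chemokine, rose by 1.75, higher in 7 of 10 mice, was at 1.15 without old 2 and turned to -1.07 when cells were chosen by tag share.

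Macrophage markers summed to 175 CPM against 65.9, led by Adgre1, which rose by 1.04, with the receptor kinase Axl up by 2.30 and the complement gene C1qb by 3.56. B cell markers summed to 22.3 against 31.1, with Cd79b down by 0.39, a value of 0.02 within the interquartile range of RNA UMI counts. Ms4a1 and Ighm were at 0 in CD11b-high cells, and Ighm also in the remaining cells. Conventional dendritic cell markers summed to 73.9 against 65.9, with the factor Batf3 up by 1.92 and Cd24a down by 0.65. Plasmacytoid dendritic cell markers summed to 74.5 against 55.4, with Tcf4 up by 0.43 and at -0.12 among cells without cell cycle UMIs. Progenitor markers summed to 268 against 315 and erythroid markers to 35.7 against 6.38, or 15.5 in CD11b-high cells without young 4, which was at 93.4. Eosinophil, basophil and platelet markers were each at 1.41 CPM or less in both classes.

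The cells were also divided into 10 bins of rising CD11b count, which places CD11b-high cells, the top bin, beside cells with less tag. Mean Itgam, over mice, was 30.1 ± 8.77 CPM in the lowest bin, 120 ± 32.2 in bin 5, 178 ± 20.4 in bin 9 and 199 ± 27.0 in the top bin. The neutrophil list went from 121 ± 21.1 CPM in the lowest bin to 432 ± 60.4 in bin 9 and 3173 ± 4705 in the top bin. Genes of mature Ly6C-high monocytes summed to 13732 ± 2511, 33673 ± 6074, 44694 ± 3203 and 44965 ± 4246 CPM in the lowest bin, bin 5, bin 9 and the top bin. The same mice gave both bins, and the step from bin 9 to the top bin was not tested. The neutrophil list had its widest spread between mice in the top bin. DCMo genes summed to 1084 ± 734 CPM in the lowest bin, 4787 ± 3253 in bin 9 and 8414 ± 5930 in the top bin, and S phase genes to 2644 ± 269, 784 ± 260 and 753 ± 177.

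**Figure D4:**
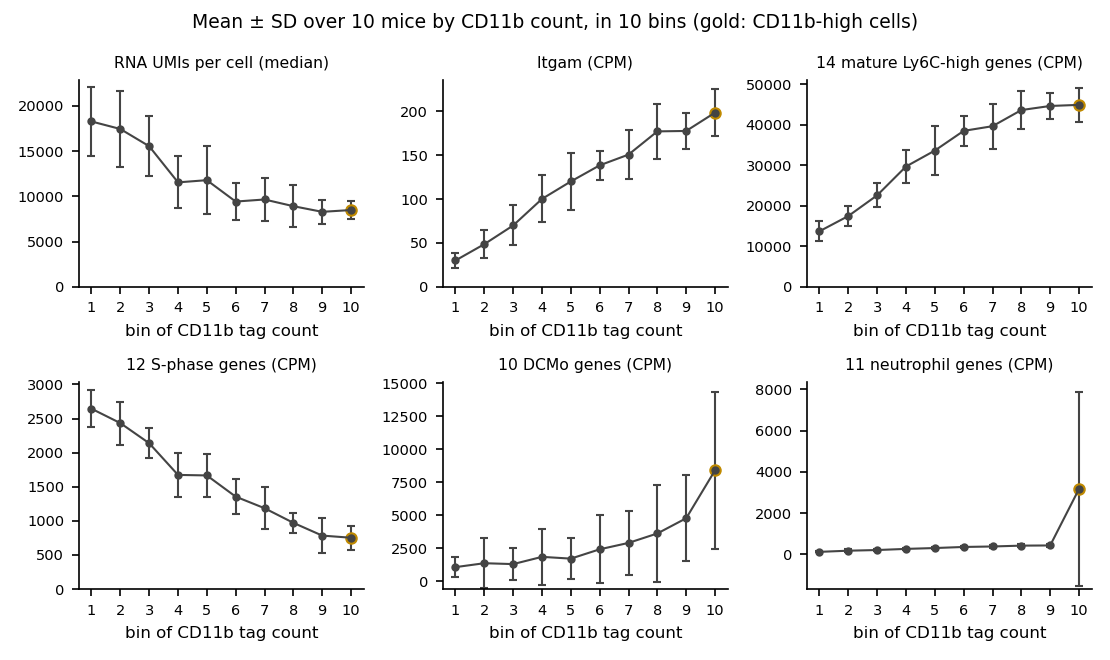
RNA UMIs per cell, CPM of Itgam and summed CPM of 4 gene lists across 10 bins of rising CD11b tag count, as mean and SD over 10 mice, with CD11b-high cells in gold. Most differences were graded over the bins, and the neutrophil list was highest in the top bin, at 3173 CPM.

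Several differences were smaller in cells matched for other properties. Among cells without cell cycle UMIs, 455 genes were called, H2-Aa rose by 1.48, Apoe by 1.05 and Csf1r by 0.40. Within the interquartile range of RNA UMI counts, 999 genes were called, and Itgam rose by 0.35 (edgeR adjusted p = 8.3e-04). Within the interquartile range of the other tags' total, Itgam rose by 1.20, and with selection by tag share, which kept 386 of the 756 cells, it rose by 1.08.

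Old and young mice were then compared within CD11b-high cells. The share of cells that were CD11b-high was 14.1%, 9.32%, 9.99%, 7.41% and 15.8% in old mice 1 to 5, and 7.18%, 8.05%, 9.88%, 11.2% and 9.24% in young mice 1 to 5. The ages overlapped, at 11.3 ± 3.50% against 9.12 ± 1.58% (exact permutation test, two-sided, 5 against 5, p = 0.238). Where 90% hashtag purity was required, the share was higher in old mice by 8.57 percentage points (exact permutation test, two-sided, 5 against 5, p = 0.0317). Purity itself differed by age and class. Its mouse medians in the remaining cells were 84.4% to 90.2% in old and 90.2% to 93.6% in young mice. In CD11b-high cells they were higher in every mouse, at 88.4% to 92.8% and 90.9% to 95.2%. The part of purity in this share was not tested.

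Among the other tags, Ly6C had medians without overlap between the ages in CD11b-high cells. Its median count was 447, 662, 588, 546 and 571 in old mice 1 to 5 and 668, 680, 791, 693.5 and 681.5 in young mice 1 to 5. Every old mouse lay below every young mouse, although old 2 and young 1 differed by few UMIs. The means were 563 ± 77.8 and 703 ± 50.1 (exact permutation test, two-sided, 5 against 5, p = 0.0079, the smallest this design can give, adjusted p = 0.0476 over 6 measures). Leaving out any 1 of the 5 young mice gave, by the same exact permutation test, an adjusted p of 0.0952, with differences of -149 to -118, and leaving out any 1 old mouse kept the call. The ages stayed apart with any mouse left out, and the p of these smaller designs moves in coarse steps. The change of call therefore does not show that the difference rests on the young mice. The Ly6C age difference was also not called with HTODemux singlets, with the top 5% or with the top 10% within each mouse, where the difference was -85.1, -165 and -131, or by tag share, where it was -50.7. In the remaining cells the Ly6C medians were 409.5, 455, 467, 475 and 508 in old mice 1 to 5 and 515, 497, 509, 500 and 515.5 in young mice 1 to 5, so that the ages overlapped by old 5 and most old mice were again lower. Whether the age difference in the tag differed between the classes was not tested. MHC-II medians were 144, 33.5, 21, 75 and 70 in old and 32, 18, 32, 51.5 and 42.5 in young mice, which overlapped (exact permutation test, two-sided, 5 against 5, p = 0.143). The sum of the 5 tags was 705 ± 64.2 against 769 ± 50.2, also overlapping (exact permutation test, p = 0.127), and for Flt3, CD115 and CD11c the exact permutation p was 0.810, 0.587 and 0.317.

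Ly6c2 RNA differed in the opposite direction to the Ly6C tag. It was 2580, 2085, 2107, 2069 and 2569 CPM in CD11b-high cells of old mice 1 to 5, and 1703, 1794, 1748, 1780 and 1644 CPM in those of young mice 1 to 5. Old mice were all above young mice (log2 fold change 0.38, SE 0.07, edgeR adjusted p = 0.004), and in the remaining cells the log2 fold change was 0.24 (SE 0.05, adjusted p = 0.013), with no call for dependence on class (0.17, adjusted p = 0.437).

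Of 6669 genes tested between the ages in CD11b-high cells, 118 (1.77%) were called, of which 94 (1.41% of those tested) were higher in old mice and 24 (0.36%) were lower. In the remaining cells 382 of 10208 genes (3.74%) were called, 201 (1.97%) higher and 181 (1.77%) lower. Itgam was 251, 194, 165, 194 and 179 CPM in old mice and 176, 162, 196, 182 and 208 in young mice, with overlapping ages (log2 fold change 0.07, SE 0.11, edgeR adjusted p = 0.92). Of 10 tested integrin chains, 16 adaptors, 14 signalling partners of CD11b and 6 NADPH oxidase genes, 0 were called by edgeR or DESeq2 in either direction, with 2, 2, 3 and 1 at an unadjusted edgeR p under 0.05. Csf1r, at 0.30, was not called by edgeR (adjusted p = 0.080) and was called by DESeq2. With 1.77% of all genes called, a count of 0 in these lists is near the background.

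MHC-II genes were higher in old mice. H2-Aa was 2753, 2568, 1004, 1726 and 1355 CPM in old mice 1 to 5 and 539, 391, 337, 734 and 177 CPM in young mice 1 to 5. Old and young mice did not overlap (log2 fold change 2.07, SE 0.29). In the remaining cells of the same mice the H2-Aa age difference was 2.43 (SE 0.49), and its dependence on class, at 0.06, was not called (edgeR adjusted p = 0.999). H2-Ab1 rose by 2.06, H2-Eb1 by 2.23, Cd74 by 1.95 and H2-DMb1, a chain of the peptide editor, by 1.35 in CD11b-high cells, and 6 of 10 DCMo genes were higher in old mice.

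AW112010, an interferon-induced transcript, was 803, 378, 289, 396 and 225 CPM in old mice and 62.3, 96.7, 70.7, 78.9 and 98.5 in young mice. These did not overlap (log2 fold change 2.32, SE 0.27). Ly6a, which encodes Sca-1, was 117, 134, 23.1, 46.8 and 94.7 CPM in old mice and 4.45, 0, 4.16, 6.42 and 5.26 in young mice, also apart (log2 fold change 3.90, SE 0.52). Ly6i, of the Ly6 family, was 166, 231, 166, 144 and 94.7 CPM in old mice and 66.8, 46.4, 4.16, 29.3 and 23.7 in young mice, with a log2 fold change of 2.19 (SE 0.27). Reads of Ly6 family genes can be split between close copies, so their levels are uncertain. Of the 10 interferon-stimulated genes, 0 were called by edgeR or DESeq2 and 2 had an unadjusted edgeR p under 0.05. Of 12 G2/M genes 0 were called by either tool, with 3 at that p, and of 10 NeuMo genes 0 by edgeR and 1 (Srgn) by DESeq2, with 4 at that p.

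Other genes higher in old mice included the chemokine Cxcl16 by 2.61, the class I gene H2-Q6 by 2.31 and C1qb by 2.09, whose calls were each lost without young 4, at adjusted p of 0.129, 0.0502 and 0.0618. DESeq2 did not call Cxcl16 (adjusted p = 0.0724) or C1qb (adjusted p = 0.187). Of 8 tested genes grouped with complement and opsonin receptors, 4 were higher, namely Fcgr4 by 1.49, Cd300lf by 1.12, Fcgr1 by 0.76 and Clec4n by 1.41. The call for Clec4n was lost without young 4, young 5 or old 5, at an edgeR adjusted p of up to 0.135. Of 14 mature Ly6C-high genes, the matrix proteoglycan Vcan rose by 1.13, Wfdc17 by 0.54 and Slfn1 by 0.50, and fibronectin Fn1 fell by 0.38, with the call for Slfn1 lost without any 1 of 6 mice (adjusted p up to 0.155) and that for Fn1 without young 2, 4 or 5 (up to 0.0550). Gngt2 rose by 0.92 and Pla2g7 by 1.07.

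Jun and Klf4, which encode transcription factors, were lower in old mice, although of 13 tested monocyte transcription factors Klf4 was the 1 called. Jun was 148, 114, 150, 142 and 120 CPM in old mice and 258, 296, 287, 240 and 218 in young mice, without overlap (log2 fold change -0.92, SE 0.10, and -0.97 in the remaining cells). Klf4 was 152, 158, 180, 193 and 155 CPM in old mice and 214, 334, 304, 267 and 283 in young mice, also without overlap (log2 fold change -0.74, SE 0.10, and -0.50 in the remaining cells). Of 11 immediate early genes, 3 were lower, Jun with Btg2 at -0.46 and Ier2 at -0.34. Hpgd, a prostaglandin-degrading enzyme, fell by 1.19, the chemokine Ccl3 by 2.04, Stxbp6 by 0.82, Eif2d, a translation factor, by 1.31, the histone gene Hist1h4d by 0.96 and Mcm6 by 0.84. Of 12 tested S phase genes, Mcm6 was the 1 called by edgeR or DESeq2, with 4 at an unadjusted edgeR p under 0.05. The log2 fold changes of these 12 genes ran from -0.84 to -0.05. The calls for Eif2d, Hist1h4d, Mcm6, Btg2 and Ier2 were each lost when any 1 of 7 or more of the mice was left out, at an adjusted p of up to 0.128, 0.141, 0.128, 0.0808 and 0.119. DESeq2 did not call Hist1h4d (adjusted p = 0.0810).

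**Figure D5:**
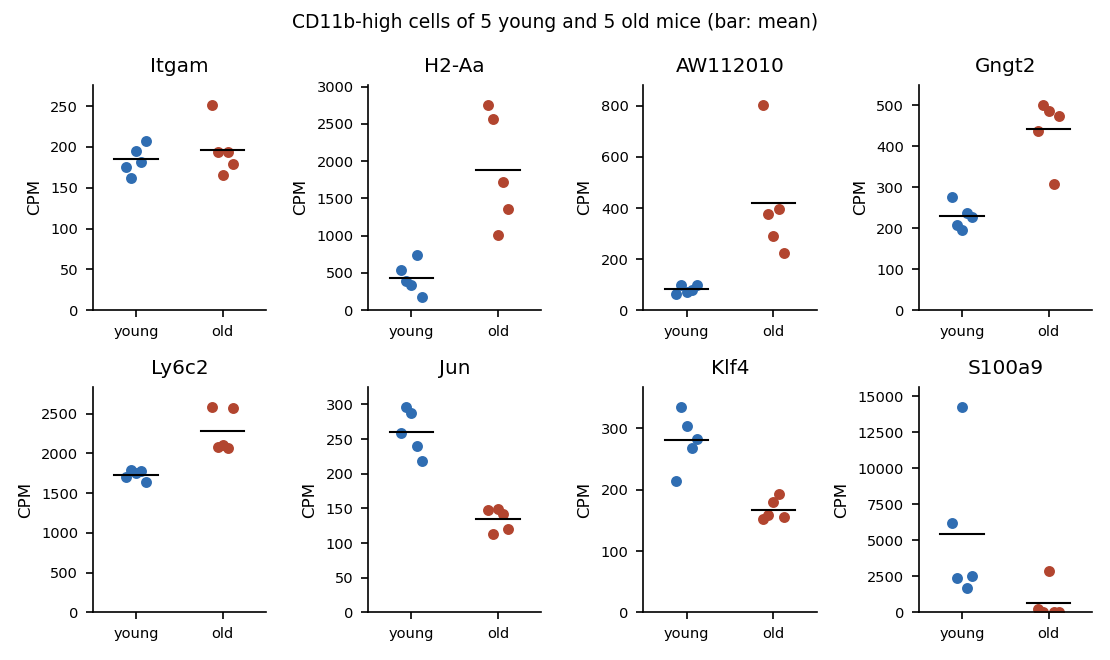
CPM of 8 genes in CD11b-high cells, each point 1 of 5 young or 5 old mice and the bar their mean. Old and young mice overlap for Itgam and S100a9 and are apart for H2-Aa, AW112010, Gngt2, Ly6c2, Jun and Klf4.

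The dependence of the CD11b-high difference on age was tested as an interaction. Of 9240 genes, 7 were called (0.0758%), 1 (0.0108%) with a higher and 6 (0.0649%) with a lower value in old mice. H2-DMa, a chain of the MHC-II peptide editor, was 663, 458, 362, 493 and 432 CPM in CD11b-high cells of old mice 1 to 5, against 410, 269, 259, 292 and 257 in their remaining cells. In young mice 1 to 5 it was 321, 211, 266, 327 and 283 against 266, 283, 248, 281 and 278. It was thus higher in CD11b-high cells of all 5 old mice and went both ways in the young mice, and the difference was larger in old mice by 0.65 on the log2 scale (SE 0.11, edgeR adjusted p = 0.0141, and 0.0586 without young 5).

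In 6 alternative selections of cells, among them HTODemux singlets, edgeR called 0 genes, with 313 to 641 genes at an unadjusted p under 0.05. DESeq2 on the original selection called 21.

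For the other 6 genes the log2 difference between CD11b-high and remaining cells was lower in old than in young mice. Hmgn2, a nucleosome-binding protein, was 99.3, 84.6, 148, 135 and 110 CPM in CD11b-high cells of old mice and 205, 249, 250, 166 and 183 in those of young mice, with remaining cells between 276 and 331 CPM in both ages (interaction -0.83, SE 0.15, edgeR adjusted p = 0.0141). The linker histone gene Hist1h1b had an interaction of -0.56 (SE 0.11, edgeR adjusted p = 0.0426). The call for Hmgn2 was lost without old 5 or young 1, at up to 0.0613, and that for Hist1h1b without any 1 of 5 mice, at up to 0.175. The granule and alarmin genes Lcn2, S100a8, S100a9 and Ngp had interactions of -3.44, -3.49, -4.42 and -3.63. The call for Lcn2 held with each mouse left out, those for S100a8 and S100a9 were lost without old 5 or young 1 (adjusted p up to 0.0613), and that for Ngp without any 1 of 5 mice (up to 0.0691). The Camp- and Ngp-rich cells described above, which Ngp itself defines, were present in all 5 young mice and in 1 old mouse. Without those cells the interactions of Lcn2, S100a8 and S100a9 were -1.36, -1.72 and -2.06, that of Ngp was 1.35, and neither these 4 genes nor Hmgn2 (-0.71, adjusted p = 0.0965) were called by edgeR, while H2-DMa (0.61, adjusted p = 0.0402) and Hist1h1b (-0.64, adjusted p = 0.0377) were. The age difference of Lcn2 within CD11b-high cells, at -2.99, was likewise -0.42 without them (edgeR adjusted p = 0.79), and in the remaining cells Lcn2 was higher in old mice, at 1.0.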

How the data were processed

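Bone-marrow monocytes were profiled on the 10x platform as RNA, hashtags and, in the female pool, 6 surface antibody tags. The authors deposited whole-number UMI counts per barcode, made with Cell Ranger 4.0.0 and STAR 2.5.1 on mm10 per the submitters' notes. The text of the study's methods names hashtag antibodies but not the panel of surface tags, and it refers to supplementary lists of antibodies. Headers of the 2 count matrices name other software versions, which also differ between the pools.

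Cells were kept and assigned to mice by the rules given in the report. Doublets of mice were limited by the hashtag purity rule and, as an alternative, by HTODemux (Seurat 5.3.0). Doublets within a mouse were not called. CD11b-high cells and gene lists were chosen with earlier results of these data known. UMI counts were summed per mouse and class, from 237487 to 2141670 UMIs over CD11b-high cells and from 2586001 to 19567316 over remaining cells, filtered with filterByExpr and scaled by TMM. They were tested with edgeR 4.0.16 (quasi-likelihood, Benjamini-Hochberg adjustment, adjusted p under 0.05) in R 4.3.3, with the mouse as a block for comparisons within mice. DESeq2 1.42.0 was an alternative. Tag and depth measures were tested with exact permutation tests, computed in Python 3.11.15 with NumPy 2.4.6. P-values measure the spread between mice of 1 pooled library. The ages of all 10 mice were in that library, so the comparison of age is not split by batch. Columns of male samples entered no comparison.

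Named genes were integrin chains and panel transcripts tested, the 10 largest rises and falls among genes with a mean log2 CPM of 5 or more and 1 sign in every mouse, the 8 largest rises and falls with age among genes without overlap, up to 4 genes per list with the lowest p, and all genes called for dependence on age. H2-Eb1 and some others came under more than 1 part. Genes named only as lower, not called or at 0 within a list, and the genes followed into single cells, were named after their values were seen. Promoters came from RefSeq (GRCm38.p6), where 7 of the 9 panel genes were found. Alternatives were another top percentage, tag share in place of count, purity, HTODemux, thinning to 2000 UMIs, matched RNA or tag totals, cells without cell cycle UMIs, no filter on low counts and leaving out each mouse. Leaving out Camp- and Ngp-rich cells, or cells of other types, was added after seeing the data. A few genes that the naming rule would give are not reported here.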

Additional observations from a re-analysis of the deposited data

Results flagged for a closer look

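In groups of 5 mice, the gap between an extreme mouse and the next was compared with the range of the group. Of 52 groups examined, 4 had such a mouse, and chance gives about 1 in 20. The median Ly6C tag count of CD11b-high cells in young 3 was 791, against 668 to 693.5 in the other young mice. Lcn2, an iron-binding granule protein, was at 1910 CPM in young 3, against 102 to 443 in the others, and Hpgd was at 204 CPM in the same mouse, against 77.3 to 108. Young 3 had 24 CD11b-high cells, the fewest of the 10 mice, and 2 of them were rich in Camp and Ngp. Cxcl16 was at 64.5 CPM in old 2, against 14.2 to 21.3 in the other old mice.

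For 7 genes the difference between CD11b-high and remaining cells depended on age in edgeR. As old minus young on the log2 scale, it was -3.44 for Lcn2, -3.49 for S100a8, -4.42 for S100a9, -3.63 for Ngp, -0.83 for Hmgn2, -0.56 for Hist1h1b and 0.65 for H2-DMa.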

How the results depend on the processing

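For genes differing between CD11b-high and remaining cells, 455 were called among cells without cell cycle UMIs, 999 within the interquartile range of RNA UMIs, 1295 after thinning and 2604 at 90% purity, and leaving out 1 mouse gave 3962 to 4475. These settings test fewer genes or use fewer cells. For age, 242 genes were called with no filter on low counts, 207 with the top 20%, 52 by tag share and 24 with the top 5%, and leaving out 1 mouse gave 76 to 143. For dependence on age, counts were 21 with DESeq2, 109 with no filter, 18 with the top 20%, 2 without Camp- and Ngp-rich cells, and 1 by tag share or with the top 5%, and leaving out 1 mouse gave 2 to 54. The count was 0 by edgeR with HTODemux singlets, without cell cycle UMIs, without cells of other types, at 90% purity, and within the interquartile range of tags or of UMIs, where 589, 313, 641, 392, 405 and 339 genes had an unadjusted p under 0.05 in turn.

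At 90% purity the age difference in share was 8.57 points and the CD115 difference -0.124, no longer called (adjusted p = 0.0898), and the CD115 difference by tag share was 0.135. The differences in RNA UMIs and detected genes at 90% purity were -631 and -164, against -2873 and -501 in the main selection. With the top 5% the mitochondrial difference was -0.217, no longer called (exact sign-flip permutation test, adjusted p = 0.0508). The Ly6C age difference was -165 with the top 5%, -50.7 by tag share, -85.1 with HTODemux singlets and -131 with the top 10% within each mouse, each no longer past the adjusted threshold, and -165 to -111 with 1 mouse left out. Signs reversed for Ncf1 (-0.0804), Junb (-0.0459), Tcf4 (-0.12) and, for dependence on age, S100a8 (0.69) among cells without cell cycle UMIs, for Mif (0.18) and Cd79b (0.0231) within the interquartile range of UMIs, for Ccl5 (-1.07) by tag share, and, for dependence on age, Ngp without Camp- and Ngp-rich cells (1.35) and without cells of other types (1.02). The causes were not tested. Named-gene values under these alternatives kept their direction and side of the threshold in 2053 of the within-mouse cases, 1613 of the age cases and 87 of the dependence cases, and lost the call in 86, 114 and 75. A call was gained in 5 within-mouse and 65 age cases. CD11b-high cells numbered 24 to 202 per mouse, and the part of this number in the changes above was not tested.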

Other observations

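The Camp- and Ngp-rich cells differed among themselves. Ly6g, which encodes the neutrophil antigen excluded in the sort, had 0 to 2 UMIs in the 11 CD11b-high ones, and their RNA totals ran from 9699 to 27275 UMIs. Their Ly6C tag counts ran from 280 to 1336 and their CD115 tag counts from 0 to 11. The 2 such cells among the remaining cells, both from old 3, had CD11b counts of 14 and 83.

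RNA of other genes was also uneven among CD11b-high cells. The 76 cells with the most UMIs of a gene, out of 756, carried all UMIs of Ccl5 and of C1qb, 86.1% of those of the interferon-stimulated Ifit3, 59.9% of AW112010 and 43.2% of Apoe, against 25.4% of Itgb2 and 24.3% of Csf1r. Mki67, a proliferation marker, had no UMI in 530 of the 756 cells, and 76 cells carried 71.9% of its UMIs.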
